A study of Mus musculus with 10 samples.

Results

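This section describes 8 genes of the complement system in mouse retina: C1qa, C1qb, C1qc, C3, C4b, Cfb, Cfi and Serping1. They were chosen by name as complement components and regulators expressed in retina, and each was read from the row of the deposited count table whose Ensembl ID carries that symbol. All 8 were found among 57186 genes in the table, and all 8 had at least 1 count among the 22756 genes that did. The CNP group consisted of 5 libraries of neuroretina from female C57BL6/JRj mice, taken 14 days after the vitreous received 1 µL of graphitic carbon nitride nanoparticles (hg-C3N4, 1 mg/mL) made up in PBS, a buffered saline. The 5 libraries of the PBS group came from female mice of the same strain that received PBS by the same route and were taken at the same time, so the injection is common to both groups. The age of the mice and any genotype beyond the strain are not given in the labels. Libraries are named here by group and by the number in their label, and since separate animals are not stated for each library, p-values measure the spread between these libraries, which may be technical.

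Complement is a cascade of secreted proteins that marks material for removal. In the classical branch, the C1q complex binds its target and its attached proteases cleave C4 and C2. In the lectin branch collectins and ficolins do the same with their own proteases. The branches meet at the cleavage of C3, an alternative loop driven by factor B amplifies it, and the terminal components can then form a pore. In the retina C1q is known as a product of microglia, the resident immune cells, and complement tags synapses and debris for uptake by them.

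The 10 libraries held 3328518 to 5428697 counts. Levels are given as CPM, the counts of a gene scaled to a common library total. A count of 0 in 1 library allowed up to 0.553 CPM in the deepest and 0.901 CPM in the shallowest library, and this limit and the counting intervals below cover counting error only. The retina label was met by its markers: the 5 rod genes summed to 41070 to 57870 CPM in CNP and 39230 to 69900 CPM in PBS. Over all genes, edgeR's quasi-likelihood test called 0 of 11499 at an adjusted p under 0.05, with 137 at an unadjusted p under 0.05. DESeq2 on the same genes called 0 with 86, and limma-voom called 0 with 142.

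The C1q subunit genes lie side by side and were the most abundant of the 8 per kilobase of transcript, and C3 is the convergence point of the cascade. Of the 8 genes, upstream sequences were at hand only for C1qb, C1qc and C3, not for C1qa, and these sequences are shown. Each runs from upstream of the start of the gene to just past it, 5′ to 3′ on the gene's strand, from RefSeq on build GRCm38.p6, which is not the GRCm39 build named for the counts. C1qb spans chr4:136886151-136886450, C1qc chr4:136892865-136893164 and C3 chr17:57228087-57228386, all on the minus strand. Capitals mark 2 motifs searched on both strands: AGGAAGT, a core of ETS family sites such as that of the myeloid factor PU.1, and TTGCNNAA, a form of the C/EBP site.
C1qb: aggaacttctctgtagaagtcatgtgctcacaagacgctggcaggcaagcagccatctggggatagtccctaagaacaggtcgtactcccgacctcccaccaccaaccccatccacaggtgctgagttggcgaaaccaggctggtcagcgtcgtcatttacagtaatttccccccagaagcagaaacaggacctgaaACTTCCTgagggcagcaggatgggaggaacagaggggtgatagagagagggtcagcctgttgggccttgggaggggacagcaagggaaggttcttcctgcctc
C1qc: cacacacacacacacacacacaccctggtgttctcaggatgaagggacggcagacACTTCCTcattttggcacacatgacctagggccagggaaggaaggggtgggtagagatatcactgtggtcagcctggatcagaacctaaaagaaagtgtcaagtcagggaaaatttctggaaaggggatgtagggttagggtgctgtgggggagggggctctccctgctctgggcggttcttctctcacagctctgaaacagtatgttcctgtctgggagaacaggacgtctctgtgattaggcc
C3: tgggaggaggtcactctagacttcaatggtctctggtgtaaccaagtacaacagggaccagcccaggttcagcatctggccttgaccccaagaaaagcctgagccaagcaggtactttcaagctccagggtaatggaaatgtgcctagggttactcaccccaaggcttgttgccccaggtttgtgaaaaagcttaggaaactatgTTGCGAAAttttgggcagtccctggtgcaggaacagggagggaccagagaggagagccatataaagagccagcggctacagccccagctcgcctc
C1qb and C1qc each held 1 match to AGGAAGT, read on the opposite strand and beginning at -53 and -195 from the start. C3 held 1 match to TTGCNNAA at -45 and none to AGGAAGT. Among 32851 promoters of this length in the table, 9.35% held AGGAAGT and 10.8% held TTGCNNAA, the motifs were chosen with these sequences in view, and a match is a description, not a binding site.

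The 3 subunits of C1q, the recognition molecule of the classical branch, were present in every library and did not differ between CNP and PBS beyond the spread between libraries. C1qa, which encodes the A chain, had 11.5 CPM in CNP 4, 12.9 in CNP 8, 11.1 in CNP 12, 19.05 in CNP 16 and 9.70 in CNP 20, against 10.8 in PBS 2, 9.52 in PBS 6, 14.6 in PBS 10, 10.6 in PBS 14 and 9.11 in PBS 18. CNP 16 was the highest library, PBS 10 the second, and the groups overlapped. C1qa averaged 12.9 ± 3.64 CPM in CNP and 10.9 ± 2.18 in PBS (SD, n = 5 each), a log2 fold change of 0.23 (SE 0.20, 95% interval -0.20 to 0.66, edgeR adjusted p = 0.9997), with 4 of 5 CNP libraries above the PBS mean.

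C1qb, the B chain gene, had 23.9 CPM in CNP 4, 19.5 in CNP 8, 19.9 in CNP 12, 28.8 in CNP 16 and 15.4 in CNP 20, against 19.2 in PBS 2, 20.4 in PBS 6, 22.7 in PBS 10, 23.6 in PBS 14 and 21.15 in PBS 18. The highest and the lowest of the 10 values were both in CNP, and the PBS values lay between them. The means were 21.5 ± 5.08 CPM in CNP and 21.4 ± 1.74 in PBS (SD, n = 5 each), with a log2 fold change of 0.01 (SE 0.16, 95% interval -0.32 to 0.35, edgeR adjusted p = 0.9997). Its sign turned without CNP 4 (-0.03), CNP 16 (-0.11), PBS 2 (-0.03) or PBS 6 (-0.0046).

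C1qc, the C chain gene, had 48.25 CPM in CNP 4, 38.4 in CNP 8, 28.6 in CNP 12, 50.01 in CNP 16 and 31.1 in CNP 20, against 37.8 in PBS 2, 37.4 in PBS 6, 38.2 in PBS 10, 31.7 in PBS 14 and 29.9 in PBS 18. CNP 4, CNP 8 and CNP 16 exceeded all PBS libraries, CNP 8 by a narrow margin, CNP 12 lay below all of them, and CNP 20 lay among them. The means were 39.3 ± 9.72 CPM in CNP and 35.0 ± 3.88 in PBS (SD, n = 5 each), with a log2 fold change of 0.17 (SE 0.16, 95% interval -0.18 to 0.51, edgeR adjusted p = 0.9997). In bulk tissue, fewer cells of a type and less RNA per cell cannot be told apart.

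Per kilobase of the longest coding transcript in GENCODE M21, the subunits kept 1 order in all 10 libraries. C1qc had 32.6 ± 8.08 CPM per kilobase in CNP and 29.1 ± 3.22 in PBS, C1qb had 19.8 ± 4.67 in CNP and 19.7 ± 1.60 in PBS, and C1qa had 12.4 ± 3.50 in CNP and 10.5 ± 2.10 in PBS (SD, n = 5 each). The per-kilobase ratio of C1qc to C1qb ranged from 1.22 to 1.82 over the libraries, and that of C1qb to C1qa from 1.45 to 2.22. The labels describe full-length cDNA made with barcoded, UMI-bearing primers, but not which part of it was read. The ratios would differ if reads came from transcript ends only, and the per-kilobase order of all members could. Division by length would then understate long transcripts such as those of C4b (5.379 kb) and C3 (5.136 kb). The order of the other members per kilobase was Serping1 (7.87 ± 1.74 in CNP and 8.54 ± 2.93 in PBS), Cfi (3.31 ± 0.875 in CNP and 3.44 ± 1.34 in PBS) and C4b (0.420 ± 0.155 in CNP and 0.474 ± 0.296 in PBS), with C3 and Cfb below them.

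**Figure D1:**
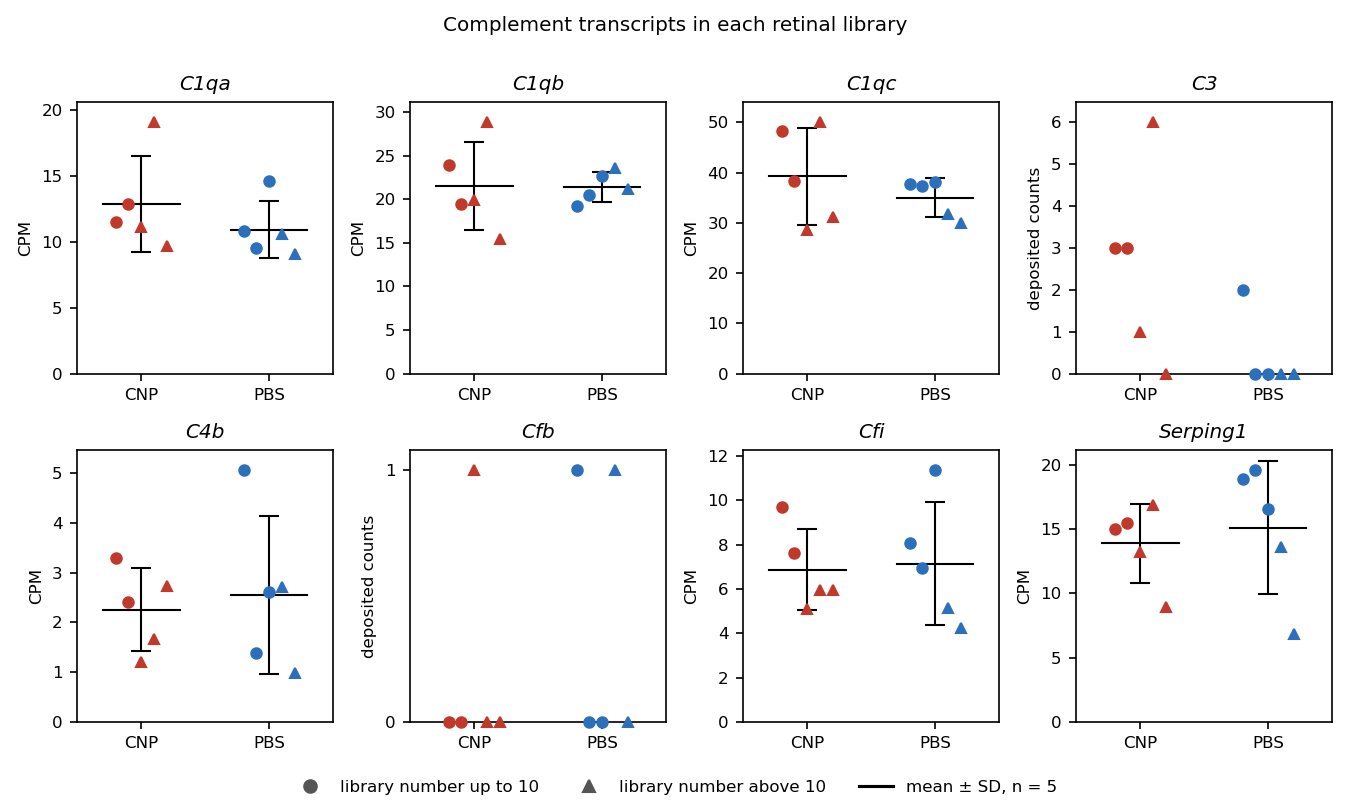
Values of the 8 complement genes in each library, with CNP on the left and PBS on the right of each panel. The y axis is CPM, or deposited counts for C3 and Cfb, points are libraries, circles and triangles mark library numbers up to 10 and above 10, and the line and bar are the mean ± SD (n = 5). CNP and PBS values overlap for all 8 genes, and C3 has counts in 4 CNP libraries and 1 PBS library.

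C4b encodes complement C4, whose cleavage follows C1q binding. It had 3.29 CPM in CNP 4, 2.41 in CNP 8, 1.20 in CNP 12, 1.67 in CNP 16 and 2.735 in CNP 20, against 5.06 in PBS 2, 1.385 in PBS 6, 2.62 in PBS 10, 2.72 in PBS 14 and 0.976 in PBS 18. PBS 2 was the highest library, PBS 18 the lowest, and all CNP values lay between them. The means were 2.26 ± 0.833 CPM in CNP and 2.55 ± 1.59 in PBS (SD, n = 5 each), with a log2 fold change of -0.19 (SE 0.40, 95% interval -1.07 to 0.68, edgeR adjusted p = 0.9997). Without PBS 2 the log2 fold change was 0.275. C4b rests on 52 counts in CNP and 62 in PBS, and 35.2% of the 50-base words of its transcript also occur in its near-identical neighbour C4a, which had 2 counts, both in CNP 16. No source used here says where reads matching C4a as well were assigned, so the C4b value is uncertain.

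C3, the central component, was at the edge of detection, and its counts lay mostly in CNP. It had 3 counts in CNP 4, 3 in CNP 8, 1 in CNP 12, 6 in CNP 16 and 0 in CNP 20, against 2 in PBS 2 and 0 in PBS 6, PBS 10, PBS 14 and PBS 18. That is 13 counts in 4 of 5 CNP libraries and 2 counts in 1 of 5 PBS libraries, and the groups overlapped. Over pooled library totals C3 had 0.592 CPM in CNP and 0.0895 CPM in PBS, a ratio of 6.61 with an exact 95% counting interval of 1.496 to 60.3, which leaves out the spread between libraries. C3 did not pass the low-count filter. In the edgeR fit without that filter its log2 fold change was 2.42 (SE 0.94, 95% interval 0.47 to 4.37, unadjusted p = 0.0174) and its adjusted p was 0.928 over 22756 genes. In that fit 422 genes, or 1.85%, had an unadjusted p under 0.05 and 0% were called. DESeq2 without the filter gave C3 an unadjusted p of 0.0432, and edgeR without CNP 16 gave a log2 fold change of 1.86 with an unadjusted p of 0.079. Over all alternatives run for C3 the smallest adjusted p was 0.761. Without PBS 2, PBS is at 0 counts and no fold is given.

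Macrophages and monocytes also transcribe C3. Of 10 markers of these cells 9 had counts and Cd163 was at 0, 8 had more counts in CNP and 0 had more in PBS. Of those 8, Ccr2 (2 in CNP, 1 in PBS), Mrc1 (4 and 3) and Pf4 (8 and 5) had few counts. Lyz2 and Cd74 held most of the counts. Of the 4 markers tested edgeR called 0, against 0% of all genes tested. At an unadjusted p under 0.05 there were 2, Lyz2 and H2-Aa, against 1.19% of all genes tested. The list was chosen with earlier results of these data known, so setting it beside that share is no test. The summed level of the list was 15.7 to 37.15 CPM in CNP, with a median of 28.5, and 9.60 to 18 CPM in PBS, with a median of 13.15, and the groups overlapped. The list summed to 37.15 CPM in CNP 16, the library with the most C3 counts, and 21.1 CPM in CNP 20, which had 0 C3 counts. Of that list, Lyz2, the macrophage lysozyme, had 13.8 CPM in CNP 16 and 11.2 in CNP 20. Cd74 had 12.15 CPM in CNP 16 and 4.23 in CNP 20, and Cd68 had 4.76 and 1.99. In CNP 8 Lyz2 had 4.02 CPM, Cd74 4.82 and Cd68 3.42. The part of these cells in the C3 counts was not tested.

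Cfb, the protease of the alternative loop, was barely detected. It had 1 count in CNP, in CNP 12, and 2 in PBS, 1 each in PBS 2 and PBS 14. Both groups were under the level that a count of 0 allows over the group (0.137 CPM in CNP and 0.134 CPM in PBS), so no fold is given. Of its transcript's 50-base words 81.4% also occur in Gm20547, a gene model that had 0 counts in all 10 libraries. In the last 500 bases of the transcript it was 91.6%. Where reads matching both genes were assigned, or whether they were counted, is not given, so the Cfb level is uncertain.

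Cfi and Serping1 restrain the cascade. Cfi encodes factor I, the protease that inactivates C3b and C4b. It had 9.69 CPM in CNP 4, 7.64 in CNP 8, 5.12 in CNP 12, 5.95 in CNP 16 and 5.97 in CNP 20, against 8.09 in PBS 2, 6.925 in PBS 6, 11.35 in PBS 10, 5.13 in PBS 14 and 4.23 in PBS 18. PBS 10 was the highest and PBS 18 the lowest, with all CNP libraries between. The means were 6.87 ± 1.82 CPM in CNP and 7.15 ± 2.79 in PBS (SD, n = 5 each), with a log2 fold change of -0.07 (SE 0.26, 95% interval -0.63 to 0.50, edgeR adjusted p = 0.9997). Its direction turned without CNP 12 (0.01) and without PBS 10 (0.16).

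Serping1 encodes the C1 inhibitor, which blocks the proteases attached to C1q. It had 14.99 CPM in CNP 4, 15.5 in CNP 8, 13.25 in CNP 12, 16.9 in CNP 16 and 8.95 in CNP 20, against 18.9 in PBS 2, 19.6 in PBS 6, 16.6 in PBS 10, 13.6 in PBS 14 and 6.83 in PBS 18. PBS 2 and PBS 6 exceeded all CNP libraries, and PBS 18 lay below all of them. The means were 13.9 ± 3.07 CPM in CNP and 15.1 ± 5.17 in PBS (SD, n = 5 each), with a log2 fold change of -0.14 (SE 0.24, 95% interval -0.67 to 0.39, edgeR adjusted p = 0.9997).

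Of the 8 genes 6 passed the low-count filter. Of these 6, 0 were called, against 0% of all genes tested, and 0 had an unadjusted p under 0.05, against 1.19%. Their fold changes were positive for 3 (C1qa, C1qb, C1qc) and negative for 3 (C4b, Cfi, Serping1), with a median log2 fold change of -0.03, against -0.0036 for all genes tested. For 5 of the 6, the 95% interval lay within 2-fold in either direction, which held for 94.2% of all genes tested. C4b was the exception, with a lower bound of 0.477-fold. The groups did not separate for any of the 6, against 0.287% of all genes tested.

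Cfi separated by library number, which the labels do not call a batch, and not by treatment. It had 4.23 to 5.97 CPM in the 5 libraries numbered above 10 and 6.925 to 11.35 CPM in the 5 numbered up to 10, with no overlap, in CNP and PBS alike. Serping1 had 6.83 to 16.9 CPM above 10 and 14.99 to 19.6 up to 10, and C1qc had 28.6 to 50.01 above 10 and 37.4 to 48.25 up to 10, both with overlap. C1qb had 15.4 to 28.8 CPM above 10 and 19.2 to 23.9 up to 10. Such a separation by library number was common, at 20.6% of all genes tested, with 10.8% lower in every library above 10. Summed rod markers were 51880 to 69900 CPM above 10 and 39230 to 45990 up to 10, and summed pigment epithelium markers 1348 to 2329 above 10 and 446 to 1192 up to 10. The part of tissue makeup in the Cfi values was not tested, and the labels do not say what the numbers stand for.

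Within these sets the edgeR comparison of CNP with PBS called 0 of the 5 members tested above 10 and 0 of the 6 tested up to 10, all with an unadjusted p over 0.05, and C3 and Cfb were not tested there. Among libraries above 10, the log2 fold change was 0.27 for Cfi, 0.34 for Serping1, 0.43 for C1qa, -0.07 for C1qb and 0.25 for C1qc, with the smallest edgeR adjusted p at 0.992. C4b did not pass the filter there. Among libraries up to 10 it was 0.0023 for Cfi, -0.27 for Serping1, 0.08 for C1qa, 0.07 for C1qb, 0.20 for C1qc and -0.09 for C4b, each with an edgeR adjusted p of 1. The values for Serping1 and C1qb thus had opposite signs in the sets, and that difference was not tested.

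The rest of the cascade was described from a list of 48 further complement genes, of which 31 had a count and 6 passed the low-count filter. Of those 6, 0 were called and 0 had an unadjusted p under 0.05, and 3 fold changes were positive and 3 negative, with a median log2 fold change of 0.0085. All 6 were regulators. Of 16 further regulators 6 had 100 or more counts over the 10 libraries, and 0 of the further initiators, terminal components and receptors did.

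Among regulators, Vtn encodes vitronectin, which blocks assembly of the terminal pore. It averaged 1274 ± 173 CPM in CNP and 1283 ± 317 in PBS (SD, n = 5 each), with a log2 fold change of -0.0093. Clu encodes clusterin, another inhibitor of that pore, with 1038 ± 188 CPM in CNP and 1054 ± 149 in PBS and a log2 fold change of -0.02. Cd59a, the membrane inhibitor of the pore, had 81.2 ± 13.1 CPM in CNP and 80.0 ± 21.3 in PBS and a log2 fold change of 0.03.

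Cr1l, the rodent regulator Crry, had a log2 fold change of 0.16 and Susd4, an inhibitor of C3 cleavage, -0.16.

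In the classical and lectin branches 9 of 15 further genes had counts, and none reached 100. C2, which encodes the protease of the C3-cleaving complex, had 22 counts in CNP and 22 in PBS. C1s1, a protease of the C1 complex, had 19 in CNP and 14 in PBS, and the collectin gene Colec12 had 14 in CNP and 19 in PBS. The mannose-binding lectin genes Mbl1 and Mbl2 had 0. Of the alternative branch Cfp, the gene of properdin, had 12 counts in CNP and 12 in PBS, and Cfd, the gene of factor D, had 0.

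Of 7 terminal pathway genes 6 had 0 counts in all 10 libraries: Hc, which encodes C5, C6, C7, C8a, C8b and C9. A count of 0 over all libraries allows up to 0.0677 CPM. C8g, which encodes the gamma chain of C8, had 16 counts in CNP and 13 in PBS. Of 8 receptor genes 7 had counts. Itgb2 and Itgam, the chains of the receptor for cleaved C3 on myeloid cells, had 30 and 15 counts in CNP and 38 and 12 in PBS. C5ar1, a receptor for the C5a fragment, had 13 in CNP and 16 in PBS. Vsig4, a receptor of resident macrophages, had 0.

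**Figure D2:**
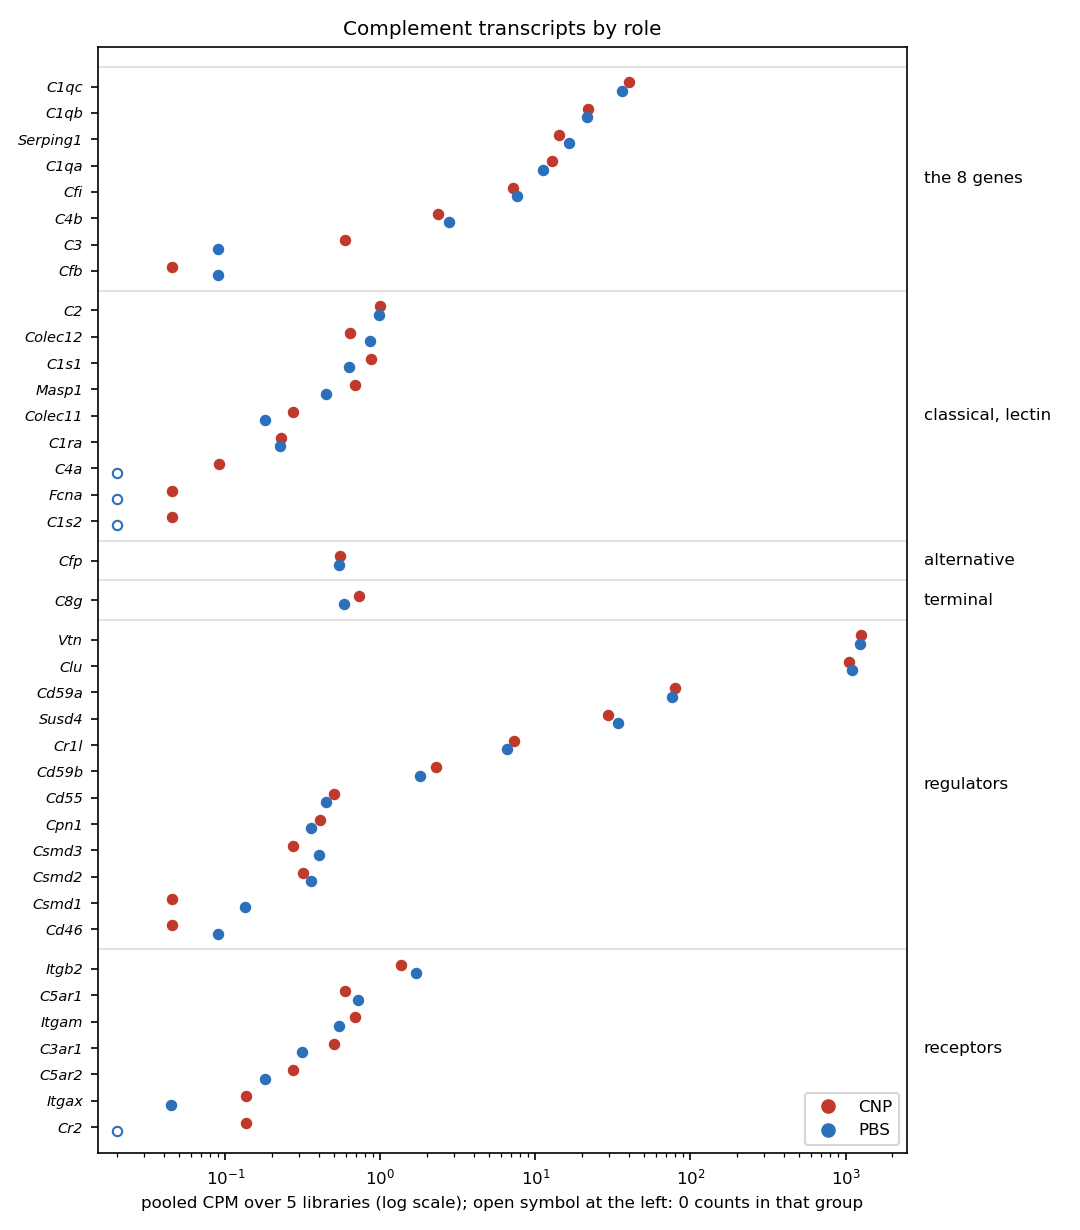
Pooled CPM (x axis, log scale) of 38 complement genes with a count, grouped by role down the y axis, for CNP above PBS in each row. Vtn and Clu have the most counts in both groups, the C1q genes lie between 11.1 and 40.3 CPM, and C3 lies at 0.592 CPM in CNP and 0.0895 CPM in PBS.

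**Figure D3:**
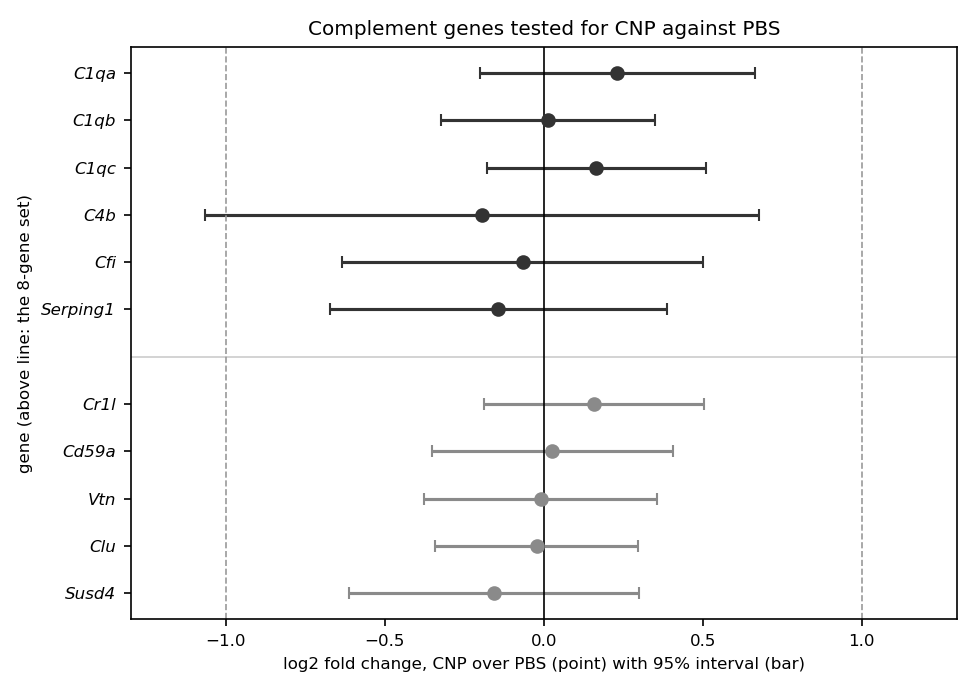
Log2 fold change of CNP over PBS (x axis) with its 95% interval for the 6 tested members of the set and 5 further regulators (y axis), with dashed lines at 2-fold. All intervals drawn include 0, and C4b alone reaches past the dashed line.

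The mean of the C1q genes varied between libraries together with the means of the microglial and of the astrocyte markers that passed the low-count filter. Not each single marker followed it: Csf1r had 4.97 CPM in CNP 20, the library with the lowest C1q mean, and 3.47 in CNP 4. Cx3cr1, Siglech, Sall1 and Fcrls of the microglia list and Pax2 of the astrocyte list did not pass and are not in these means. Over the 10 libraries 25 relations were computed on log2 CPM, 15 among pairs of the 6 tested members and 10 between the mean of C1qa, C1qb and C1qc and each cell type marker list. The C1q mean was related to the mean of 9 tested microglia markers with Pearson's r = 0.896 (permutation p = 0.00039, adjusted p = 0.00487) and Spearman's rho = 0.879 (permutation p = 0.00166, adjusted p = 0.0207). Without CNP 4 and CNP 16, the 2 libraries farthest from the median C1q mean, r was 0.761. With library number sets centred on their own means r was 0.895 (adjusted permutation p = 0.0216), and within treatment groups so centred it was 0.898. Each number set and each group alone held 5 libraries, and no correlation was computed within one. Without CNP 16 alone r was 0.819 and its adjusted permutation p 0.0643.

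The relation with 3 tested astrocyte markers, led by Gfap, the intermediate filament gene of astrocytes and stressed Müller glia, was of like size. Pearson's r was 0.908 (permutation p = 0.00011, adjusted p = 0.00275), Spearman's rho 0.879 (permutation p = 0.00159, adjusted p = 0.0207), and r was 0.827 without CNP 4 and CNP 16. Centred within library number sets it was 0.918. Against Müller glia markers r was 0.453 (adjusted permutation p = 0.367, rho 0.430 with adjusted permutation p = 0.42), and against rod markers -0.315 (adjusted permutation p = 0.505, rho -0.430 with adjusted permutation p = 0.42). Endothelium markers had r = 0.693 (adjusted permutation p = 0.174, rho 0.636 with adjusted permutation p = 0.225). These values depended on the scaling: on plain library totals r was 0.706 for Müller glia (adjusted permutation p = 0.0528), 0.824 for endothelium (0.0341), -0.73 for rods (0.0481), 0.93 for microglia (0.0005) and 0.936 for astrocytes (0.00137). On scaled totals r was 0.428 for macrophage and monocyte markers (adjusted permutation p = 0.397), and -0.556 without CNP 4 and CNP 16. For fibroblast markers it was 0.573 (adjusted permutation p = 0.18), for pericytes 0.167 (0.769), for pigment epithelium -0.119 (0.818) and for lens -0.173 (0.769). Libraries share depth and dissection in each of these measures.

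Of the 15 member pairs 0 passed the adjusted threshold. The C1q pairs had Pearson's r of 0.666 (C1qa with C1qb), 0.679 (C1qa with C1qc) and 0.624 (C1qb with C1qc), each with an adjusted permutation p of 0.174. Their Spearman's rho was 0.394, 0.733 and 0.479, and without the 2 farthest libraries r was 0.193, 0.460 and 0.295, so these relations rest on CNP 16 with PBS 10 (both pairs of C1qa) or CNP 20. With CPM on plain library totals in place of scaled totals, all 3 pairs passed (adjusted permutation p = 0.043, 0.043 and 0.0342). Cfi and Serping1 had r = 0.622 (adjusted permutation p = 0.174), with rho 0.576 (adjusted permutation p = 0.276), r 0.749 without CNP 4 and PBS 10, and r 0.186 centred within library number sets.

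**Figure D4:**
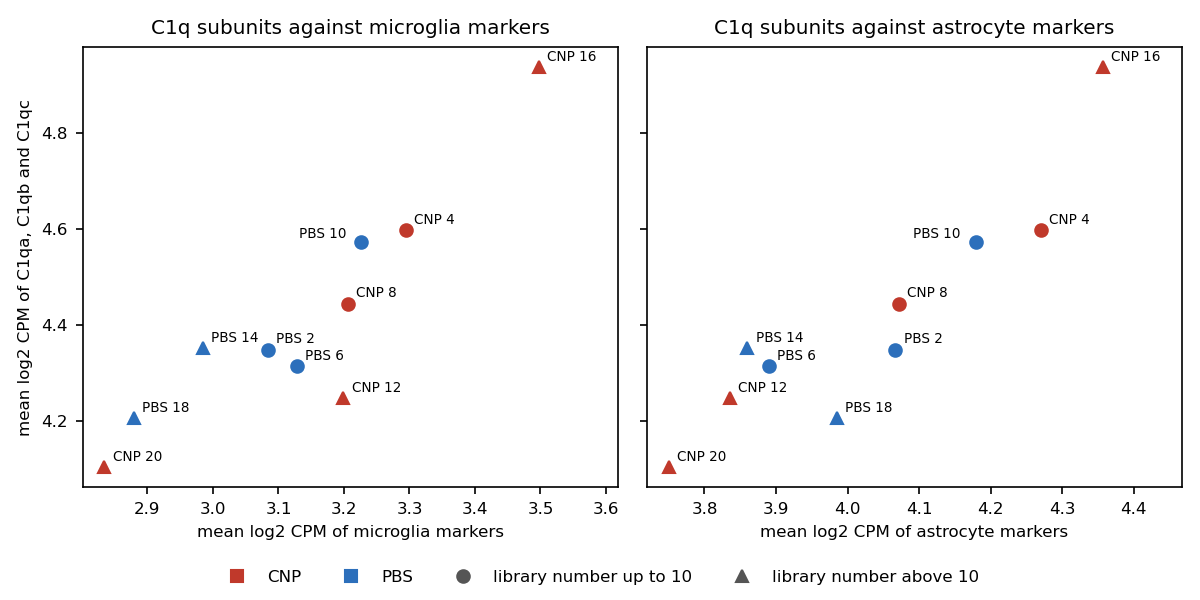
Mean log2 CPM of C1qa, C1qb and C1qc (y axis) against the mean log2 CPM of tested microglia markers (left) and tested astrocyte markers (right) in each library, coloured by group with symbols for library number. CNP 16 is highest and CNP 20 lowest on every axis, and r is 0.896 on the left and 0.908 on the right.

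Microglia markers themselves summed to 133 to 212 CPM in CNP, with a median of 188, and 139 to 194 CPM in PBS, with a median of 173, and all 13 had counts. Of these, 6 had more counts in CNP and 7 had more in PBS. Cx3cr1, the fractalkine receptor, had 34 counts in CNP and 52 in PBS, and P2ry12, the ADP receptor of resting microglia, 120 in CNP and 127 in PBS. In the other direction Gpr34, a lysophospholipid receptor named after its values were seen, had 91 in CNP and 58 in PBS. Its log2 fold change was 0.72 (95% interval 0.22 to 1.22, edgeR unadjusted p = 0.0087, adjusted p = 0.9997). Of all genes tested 1.19% had an unadjusted p under 0.05. Ctss, the gene of cathepsin S, likewise had more counts in CNP (1192) than in PBS (1068). By the Pearson correlation of log2 CPM over the 10 libraries, the genes most like the C1q mean among 11341 were Gpx8 (0.915), Hdac1 (0.912), Rogdi (0.910), 1700001L19Rik (0.910) and Ctsl (0.910). Those most like C4b were Qsox1 (0.889), Coasy (0.875), Dhx37 (0.871), Zfp94 (0.868) and Pole3 (0.867).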

How the data were processed

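Polyadenylated RNA of 10 neuroretinas was reverse transcribed with barcoded, UMI-bearing primers and sequenced, per the labels' protocols. STAR, STARsolo and build GRCm39 are named, per the submitters' processing notes. No source used here gives their versions, settings, strand or UMI collapsing, so counts may include amplification copies. The authors deposited 1 table of raw counts per Ensembl gene. Symbols matched 51880 of 57186 IDs, and IDs without one held 0.881% of counts. Pairs of libraries within a group differed beyond counting noise (chi-square per degree of freedom 4.4 to 36.5).

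Counts were filtered with filterByExpr (minimum count 10, minimum total 15), scaled by TMM and tested two-sided by the quasi-likelihood test of edgeR 4.0.16 (R 4.3.3), Benjamini-Hochberg adjusted over all 11499 genes, threshold 0.05, no covariate. CPM is on TMM-scaled totals unless called pooled; log2 CPM used a prior count of 2. C3 and Cfb, which failed the filter, were read from the fit without it. Correlations used 100000 permutations, two-sided. The scripts were tested on simulated data with known changes. Alternatives were DESeq2 1.42.0, limma-voom (limma 3.58.1), other scalings and filters, a library-number covariate or set, and each library left out.

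The members, lists and rules were chosen with earlier results of these data known. Named are all 8 members, the 3 most counted further genes of each role, fixed markers, and the 5 genes most like the C1q mean and C4b. Mbl1, Mbl2, Cfd, Vsig4, H2-Aa, Gpr34, Ctss, Cr1l, Susd4, Cd163, C4a and the terminal genes at 0 were added after their values were seen. Some items are not reported here.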

Additional observations from a re-analysis of the deposited data

Results flagged for a closer look

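Each of 14 complement genes (the 8 members and the 6 tested regulators) was looked at for a library far from its companions, in 28 groups of 5. With continuous values chance flags about 1 group in 20. Here 2 stood out, each with 4 of 5 libraries at 0, where any single library with a count is flagged, so that rate does not apply to them. Cfb had 0.301 CPM in CNP 12 and 0 in the other CNP libraries. C3 had 0.337 CPM in PBS 2 and 0 in the other PBS libraries.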

How the results depend on the processing

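Under all 21 alternatives, leaving out each library included, 0 genes, 0 members and 0 further complement genes were called. The sign of C1qa and C1qc held in each alternative where they could be fitted (log2 fold change 0.05 to 0.43 and 0.07 to 0.26). That of C3 held in 12 alternatives added after seeing the data (1.86 to 2.71, apart from the fit without PBS 2). Without PBS 2, PBS is at 0 and the fitted size is no bound. C3 had 13 counts in CNP, at most 6 in 1 library, and 2 in PBS. Leaving out 1 library thus could not turn its sign, and the other fits used the same counts, so this is no support for C3. Values near 0 turned: C1qb to -0.0018 with limma-voom and -0.0683 in libraries above 10, Cfi to 0.10 with library number as a covariate, 0.0023 in libraries up to 10 and 0.27 above 10, and Serping1 to 0.34 above 10. Leaving out 1 library gave -0.11 to 0.11 for C1qb, -0.38 to 0.275 for C4b, -0.23 to 0.16 for Cfi and -0.31 to -0.02 for Serping1; the cause was not tested. Relations past the threshold numbered 2, 10 on plain library totals, and 1 to 2 with 1 library left out. No paired analysis was possible because the groups share no replicate number. At this depth C3, Cfb and all further initiators and receptors had few counts, and only large changes could have been detectable. For Cfb the handling of reads shared with Gm20547 is also not known.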
